A study of Mus musculus with 24 samples.

Results

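The mRNA abundance of 7 mouse genes that handle ammonia, 5 of the urea cycle and 2 of glutamine synthesis and breakdown, was examined in colon and liver. The genes were taken by name from the array annotation (Cps1, Otc, Ass1, Asl, Nags, Glul and Gls2), and 12 of the 41174 probes on the array carried one of those names. Where a gene had several probes, the one with the highest mean intensity over all arrays was its main probe. Colon and liver came from 12 female C57BL/6 mice aged 12 weeks, born to dams kept on HF-low, a diet rich in fat and poor in both selenium and folate, from before mating until weaning. After weaning, 6 offspring stayed on that diet (HF-low-low) and 6 changed to an equally fat-rich diet in which both nutrients were sufficient (HF-low-suf), so that both groups shared the maternal exposure. Whole tissue was extracted, and each mouse gave 1 array per tissue, which makes 24 arrays in 4 groups of 6.

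The urea cycle turns toxic ammonia into urea, mostly in the hepatocytes that surround the portal vein. CPS1, switched on by the N-acetylglutamate that NAGS makes, and OTC work in the mitochondria, and ASS1 and ASL carry it on in the cytosol. Ammonia that escapes is caught as glutamine by GLUL in a narrow rim of hepatocytes around the central vein, while the liver glutaminase GLS2 releases ammonia from glutamine again.

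Probes that join separate stretches of the gene report spliced mRNA, so the 3 probes of this kind are shown. They are 60 bases long and lie at chrX:8709867-8733514 (Otc, plus strand), chr5:129249917-129250502 (Asl, minus strand) and chr2:31526070-31527709 (Ass1, plus strand) in build mm7, as the scanner files annotate them. The probe of Otc is its second brightest, and the others are the main probes of their genes.
Otc: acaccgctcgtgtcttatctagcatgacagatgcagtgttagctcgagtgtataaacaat
Asl: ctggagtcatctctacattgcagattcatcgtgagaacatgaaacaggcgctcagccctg
Ass1: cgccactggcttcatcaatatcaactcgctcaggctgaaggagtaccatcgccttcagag

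Start sites were found for 4 of the 7 genes in a RefSeq promoter table (build GRCm38.p6), and the 250 bases before each start are shown because the genes share a liver bias of very different size. They lie at chrX:10252055-10252304 (Otc), chr2:31470020-31470269 (Ass1), chr11:102145263-102145512 (Nags) and chr1:153899679-153899928 (Glul), all on the plus strand. Capitals mark a CCAAT box (CCAAT) or a GC box (GGGCGG) on either strand, which do not overlap each other here.
Otc: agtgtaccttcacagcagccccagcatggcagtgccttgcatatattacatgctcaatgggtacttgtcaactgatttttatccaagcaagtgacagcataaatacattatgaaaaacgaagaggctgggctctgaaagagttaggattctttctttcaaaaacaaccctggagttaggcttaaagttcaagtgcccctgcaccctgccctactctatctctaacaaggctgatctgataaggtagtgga
Ass1: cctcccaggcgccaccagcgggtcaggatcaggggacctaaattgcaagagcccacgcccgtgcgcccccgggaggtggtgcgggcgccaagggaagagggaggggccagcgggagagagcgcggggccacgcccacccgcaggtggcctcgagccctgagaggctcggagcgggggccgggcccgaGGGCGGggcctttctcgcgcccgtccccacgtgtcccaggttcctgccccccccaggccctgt
Nags: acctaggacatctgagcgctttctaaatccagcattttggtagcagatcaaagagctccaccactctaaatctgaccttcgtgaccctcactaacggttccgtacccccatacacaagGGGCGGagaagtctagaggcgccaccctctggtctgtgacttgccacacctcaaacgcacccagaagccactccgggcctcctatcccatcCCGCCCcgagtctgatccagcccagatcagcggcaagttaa
Glul: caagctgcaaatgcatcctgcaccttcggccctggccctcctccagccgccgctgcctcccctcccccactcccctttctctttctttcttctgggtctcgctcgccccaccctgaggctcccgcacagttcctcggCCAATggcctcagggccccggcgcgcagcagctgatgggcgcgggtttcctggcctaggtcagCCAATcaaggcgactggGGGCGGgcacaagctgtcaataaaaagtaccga

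The 4 sequences ranged from 43.6% G and C in Otc to 75.6% in Ass1, with 55.6% in Nags and 64.8% in Glul. Glul held 2 CCAAT boxes and 1 GC box, Nags 2 GC boxes, Ass1 1 GC box, and Otc neither. A CCAAT box was present in 33.8% and a GC box in 32.7% of the 32851 promoter windows of this length in the table, and the TATA box TATAAA, in 12.4% of them, was in none of the 4.

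Each array held the Cy3-labelled RNA of 1 mouse and, in Cy5, a common reference RNA, in the same dye orientation throughout. Values are log2 ratios of Cy3 to Cy5, so that a positive number means more mRNA than in the reference. By the labels the reference is a pool of the colon and liver RNA of all mice, but its signal went against that. All 7 kidney genes given here, listed after this was seen, were brighter in Cy5 on all 24 arrays than in Cy3 on any array; Umod, which encodes the urinary protein uromodulin, gave 57032 to 94583 units in Cy5 and 921 to 2197 in Cy3. A level against the reference is therefore not a level against the mean of the 2 tissues, and only differences between arrays are compared below. The composition of the reference was not tested. The labels put the samples in Cy3, where Cps1 gave 24636 to 71930 units in livers and 430 to 2216 in colons. In Cy5 it gave 26851 to 39906 over all arrays. The diet direction used here, HF-low-suf minus HF-low-low, is opposite to the sign that the study prints for Nov in colon and Slc2a4 in liver. The cause was not tested, and with the study's sign each diet difference below would keep its size and its p and change its sign.

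The tissues matched their labels. All 6 hepatocyte genes with a probe (Apoa1, Apob, Fgb, Hpd, Tat, Ttr) were higher in liver, with a mean log2 ratio of 1.58 to 2.33 over the livers and of -3.54 to -3.06 over the colons, and all 8 colon epithelium genes were higher in colon. Cy3 medians lay at 3.76 to 7.10 times local background. The Cy5 median was up to 17.6 times its background, and stood apart on colon HF-low-suf replicate 5 and liver HF-low-suf replicate 4. Among the livers, that of HF-low-suf replicate 1 had the highest mean log2 ratio of 7 adipose genes (2.30, next 0.10), and that of replicate 2 the highest of 8 skeletal muscle genes (-2.52, next -4.18). Among the colons, that of HF-low-suf replicate 5 had the lowest adipose mean (0.65, next 1.67). In bulk tissue, fewer cells of a type and less mRNA per cell cannot be told apart.

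How far the ammonia-handling genes separate liver from colon was read from the 12 mice, each of which gave both tissues. In the fit over all probes (limma, mouse as a random block), all 7 genes passed an adjusted p of 0.05 with a fold above 1.5, and all 7 were higher in liver, by 3.91-fold to 86.5-fold. Over all probes, 11.4% were called higher in liver and 12.2% higher in colon. The median difference of the 7 genes was 4.49 on the log2 scale, beside 0.02 for all probes.

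The mitochondrial steps, which commit ammonia to the cycle, are taken first. Cps1, whose product makes carbamoyl phosphate from ammonia, had log2 ratios from 1.65 to 2.82 in the 12 livers (median 2.18) and from -4.58 to -3.39 in the 12 colons (median -4.10). The lowest liver stood far above the highest colon. The difference was 6.22 ± 0.13 (SE, n = 12 mice), a 74.4-fold difference with an adjusted p of 1.5e-23. On every liver and no colon, the Cy3 signal of Cps1 was flagged as scaled up from a low-gain scan. The same held for Ass1, and for most livers and no colon with Asl, Gls2 and Glul. Their fold differences therefore also rest on that scaling.

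Otc, which joins carbamoyl phosphate to ornithine, ranged from 1.65 to 2.51 in liver (median 2.09) and from -2.66 to -1.88 in colon (median -2.48). Its difference was 4.49 ± 0.10 (SE, n = 12 mice), or 22.5-fold. Its spliced probe gave a smaller difference of 3.54 ± 0.12, and its dimmest probe 1.02 ± 0.20. That probe was well above background in 5 livers and 1 colon, while both other probes were so on all 24 arrays.

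Nags, the source of the CPS1 activator, was detected well above background in every sample and differed less. Its log2 ratio was 2.01 to 2.59 in liver (median 2.30) and -0.21 to 0.51 in colon (median 0.09). The groups did not overlap, and the difference of 2.19 ± 0.09 (SE, n = 12 mice) was 4.57-fold. The other Nags probe gave 1.87 ± 0.14. Set beside Cps1, the activator's mRNA thus differed between the tissues by a far smaller factor than that of the enzyme it activates, on intervals of 4.04-fold to 5.17-fold and 61.4-fold to 90.2-fold.

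The cytosolic steps were also higher in every liver than in any colon. Ass1, which condenses citrulline with aspartate, ranged from 0.14 to 1.99 in liver (median 1.24) and from -4.17 to -3.05 in colon (median -3.43). It differed by 4.82 ± 0.15 (SE, n = 12 mice) or 28.3-fold, and its other probe gave 4.2 ± 0.14. Asl, which releases arginine and fumarate, ranged from 1.74 to 3.02 in liver (median 2.68) and from -1.98 to -1.35 in colon (median -1.65). Its difference of 4.25 ± 0.11 (SE, n = 12 mice) was 19.0-fold, and the intervals of Asl (16.3-fold to 22.2-fold) and Otc (19.5-fold to 25.9-fold) overlapped.

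**Figure D1:**
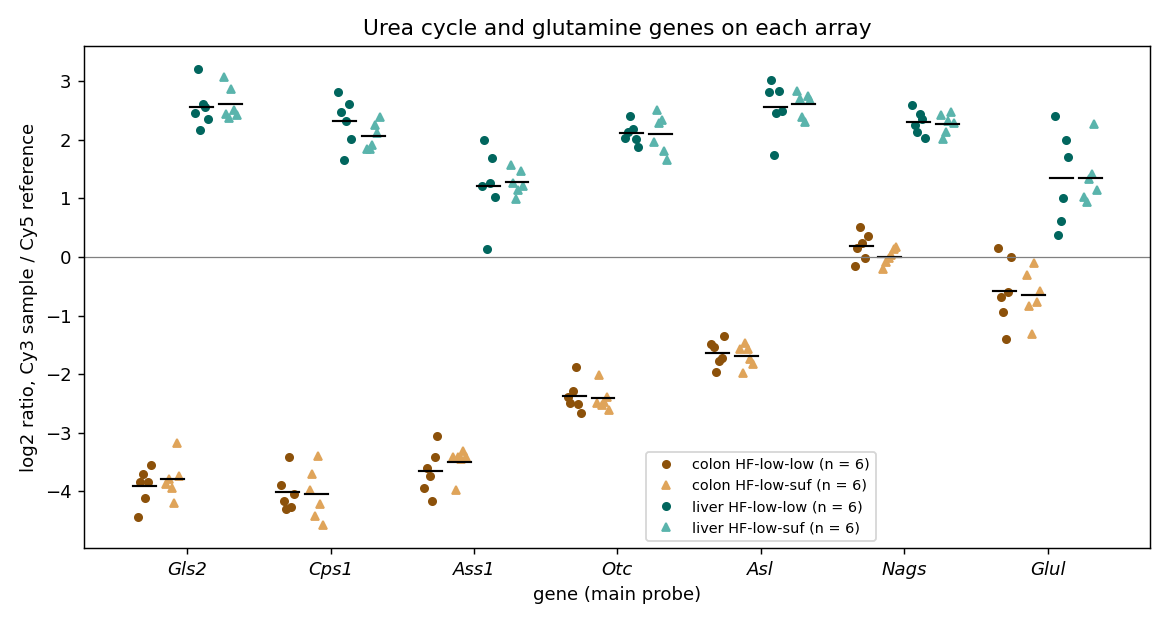
Log2 ratio of sample to reference (vertical axis) for the main probe of each gene on each of the 24 arrays, with 6 arrays per group and the group mean as a black line. For all 7 genes every liver lies above every colon, with the narrowest gap for Glul, between 0.16 and 0.38.

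The glutamine enzymes differed by very unequal amounts. Gls2, the liver form of glutaminase, ranged from 2.16 to 3.21 in liver (median 2.48) and from -4.43 to -3.18 in colon (median -3.85). The difference of 6.44 ± 0.12 (SE, n = 12 mice) was 86.5-fold and lay with Cps1 at the top of the list. Its signal was well above background on 11 of the 12 colons, at 5.69 to 10.1 times local background. The size of the Gls2 difference therefore rests on a low colon signal. Glul, glutamine synthetase, ranged from 0.38 to 2.40 in liver (median 1.24) and from -1.40 to 0.16 in colon (median -0.64). Its difference of 1.97 ± 0.20 (SE, n = 12 mice) was 3.91-fold, and no liver fell below the highest colon. The dim second probe of Glul, well above background in 11 livers and 7 colons, gave 0.98 ± 0.28.

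Within single mice the direction was the same for every gene. The liver exceeded the colon of the same animal in 12 of 12 mice for each of the 7 genes, with the smallest single-mouse difference at 1.07 for Glul. The two-sided exact permutation test over the 12 within-mouse differences gave p = 0.000488 for each of them, the smallest that it allows. In the order Gls2, Cps1, Ass1, Otc, Asl, Nags, Glul, the intervals of Gls2 and Cps1, of Ass1 and Otc, of Otc and Asl, and of Nags and Glul overlapped. Those of Cps1 and Ass1 (22.9-fold to 34.8-fold) and of Asl and Nags did not. All these are intervals of main probes. The other Ass1 probe (15.1-fold to 22.4-fold) and the spliced Otc probe (9.87-fold to 13.7-fold) lay outside the interval of their main probe. The order of Ass1, Otc and Asl is therefore that of their main probes only.

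**Figure D2:**
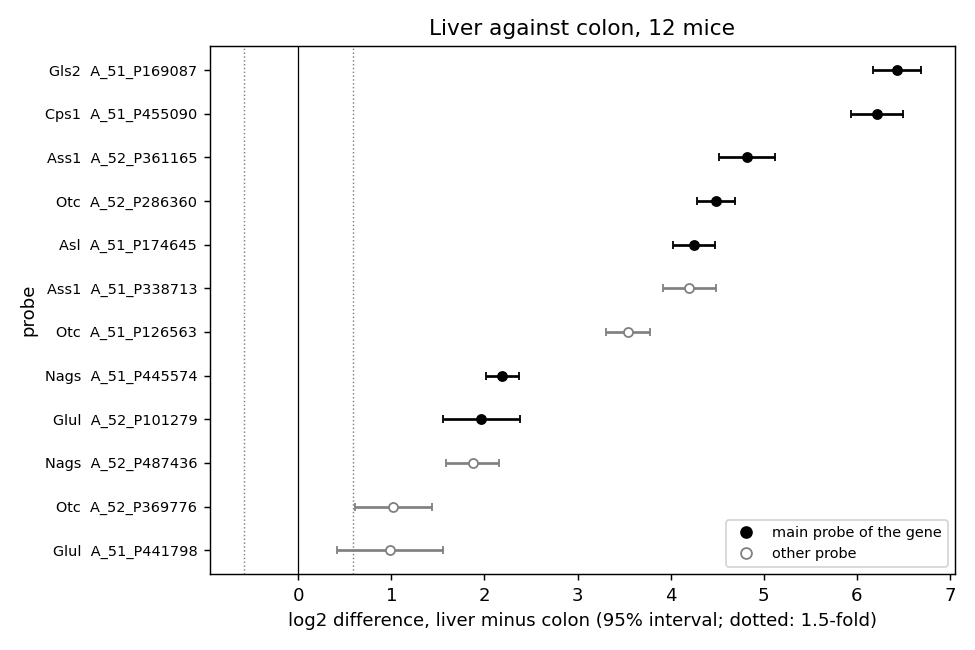
Log2 difference between liver and colon (horizontal axis) for all 12 probes, with 95% intervals from the fit over 12 mice and dotted lines at 1.5-fold. Filled points are main probes; the other probes of Ass1, Otc, Nags and Glul keep the direction of the main probe with smaller differences.

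Genes that feed or surround the cycle were called in both directions. Of 73 further genes in 7 lists of transport, nitrogen supply, arginine use, glutamine use, regulators and hepatocyte zones, 72 had a probe; 38 were called higher in liver, 14 higher in colon and 20 were not called, where 11.4% and 12.2% of all probes were called higher in liver and in colon. Of those higher in liver, 26 were well above background on all 12 colons and 12 on some of them. Of those higher in colon, 6 were so on all 12 livers, 6 on some and 2 on none. Where the lower tissue was near background, the size of a difference rests on that signal, and the number of its arrays well above background is given. Nitrogen supply to the cycle was higher in liver for 6 of 7 genes. Gpt2 (3.52 ± 0.09), an alanine aminotransferase, Car5a (3.00 ± 0.16, on 1 of 12 colons well above background), the mitochondrial carbonic anhydrase that supplies bicarbonate to CPS1, and Glud1 (2.44 ± 0.13), glutamate dehydrogenase, were among them. Asns (-3.62 ± 0.22), asparagine synthetase, was the 1 gene of this list higher in colon, with 8 of 12 livers well above background.

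Transport genes were higher in liver for 9 of 16, higher in colon for 1 and not called for 6. By fitted difference the first were the amino acid carriers Slc38a4 (5.55 ± 0.17) and Slc38a3 (4.86 ± 0.14), the arginine carrier Slc7a2 (4.16 ± 0.34) and the urea and glycerol channel Aqp9 (4.02 ± 0.12). Slc38a3 was well above background on all 12 colons, Slc38a4 on 4 and Slc7a2 and Aqp9 on 1 each, as was the glutamate carrier Slc1a2 (3.93 ± 0.17), so that neither their order nor which genes belong among the first is settled. Of the mitochondrial carriers of the cycle, Slc25a15 for ornithine was called at 2.91 ± 0.16, with 4 colons well above background, and Slc25a13 for aspartate at 2.75 ± 0.11. Their paralogues were not called, Slc25a12 at 0.26 ± 0.11 (adjusted p = 0.055, limma) and Slc25a2 on signals not well above background on any array. Slc1a5 (-3.20 ± 0.16), a glutamine carrier of dividing cells, was the 1 transport gene higher in colon, with 11 of 12 livers well above background.

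Genes that use arginine, ornithine and proline were called higher in liver for 7 of 17 and higher in colon for 5. Agmat (4.86 ± 0.11), Gamt (3.95 ± 0.12), Aldh4a1 (3.35 ± 0.12) and Prodh (2.78 ± 0.11) had the largest differences, the last pair being enzymes of proline breakdown. Aldh18a1 and Pycr1, of proline synthesis, were called higher in colon (adjusted p of 3.4e-06 and 4.3e-06, limma), but neither was well above background on any liver. Against the lowest signal that was, colon was at least 1.99-fold higher for Aldh18a1 and at least 1.06-fold higher for Pycr1, which 4 of 12 colons measured. Odc1, the first enzyme of polyamine synthesis, was not called, at 0.06 ± 0.09. Of 9 glutamine-using enzymes of nucleotide, amino sugar and NAD synthesis, 2 were higher in liver (Ppat 1.08 ± 0.13, Gmps 0.77 ± 0.13), 2 higher in colon (Gfpt1 -1.47 ± 0.14, Ctps -0.72 ± 0.11) and 5 not called. Gfpt1 was well above background on 2 of 12 livers.

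Among regulators, 6 of 11 were higher in liver and 3 higher in colon. The glucagon receptor Gcgr (6.64 ± 0.11, on 11 of 12 colons well above background) stood beside Gls2, followed at a distance by Foxa2 (2.19 ± 0.14), Cebpb (1.87 ± 0.18) and the deacetylase Sirt3 (1.82 ± 0.08). Periportal genes were higher in liver for 5 of 6 (Cyp2f2 6.35 ± 0.10, Hal 5.72 ± 0.12, Sds 4.8 ± 0.25, Hsd17b13 3.51 ± 0.13) and perivenous genes for 6 of 9 (Gulo 5.91 ± 0.10, Cyp2e1 4.35 ± 0.22, Slc1a2 3.93 ± 0.17, Cyp1a2 3.25 ± 0.20). Of these, Sds and Slc1a2 were well above background on 1 of 12 colons each, Cyp1a2 on 8, Gulo on 9 and Hal on 11. In each zone 1 gene was called higher in colon, the periportal Pigr (-0.81 ± 0.13) and the perivenous Axin2 (-0.62 ± 0.13, with 8 of 12 livers well above background), and 2 perivenous genes were not called.

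Whether the diet after weaning moved these genes was the second question, in each tissue on 6 against 6 mice, with HF-low-low as the control. No gene of the 7 passed the study's threshold of an unadjusted p of 0.01 with a fold above 1.5 in either tissue. None had an unadjusted p under 0.05, and the adjusted p (limma) was 1.0 for all 7 in both. Over all probes, 0.117% passed that threshold in liver and 0.168% in colon, and none passed an adjusted p of 0.05. The 72 surrounding genes gave 0 calls in liver and 0 in colon at the study's threshold.

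In liver the differences of the main probes, HF-low-suf minus HF-low-low, ran from -0.26 for Cps1 to 0.06 for Gls2 on the log2 scale. For Cps1 the HF-low-low livers ran from 1.65 to 2.82 (median 2.39) and the HF-low-suf livers from 1.83 to 2.39 (median 2.01). The groups overlapped, and the difference of -0.26 ± 0.19 (SE, n = 6 per group) had an exact permutation p of 0.22. Its 95% interval of -0.67 to 0.15, or 0.63-fold to 1.11-fold, did not exclude a difference of 1.5-fold downwards. On 2 of 6 slides, each of which held 1 mouse of either diet, the HF-low-suf liver was the higher one. Single livers moved this value: it was -0.39 ± 0.16 without HF-low-low replicate 3 (unadjusted p = 0.033 and adjusted p = 0.94, limma) and -0.16 ± 0.18 without HF-low-low replicate 1. By scan day it was -0.45 ± 0.31 and -0.06 ± 0.19, and without HF-low-suf replicates 1 and 2 it was -0.15 ± 0.22.

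Nags was the most closely bounded in liver. Its means were 2.30 ± 0.20 and 2.27 ± 0.17 (SD, n = 6) in HF-low-low and HF-low-suf livers, a difference of -0.03 with an interval of 0.81-fold to 1.19-fold. Otc (-0.02), Asl (0.05) and Gls2 (0.06) had intervals inside 0.77-fold to 1.38-fold, and that of Ass1 (0.05) reached 1.5-fold.

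Glul was too variable between livers for so narrow a bound. It ran from 0.38 to 2.40 (median 1.36) in HF-low-low and from 0.94 to 2.26 (median 1.24) in HF-low-suf livers. Its difference was 0.00 ± 0.34 (SE, n = 6 per group), with an interval of 0.61-fold to 1.65-fold. That interval does not exclude a difference of 1.5-fold in either direction. The dim second probe of Glul gave 0.40 ± 0.42 in liver, with no call.

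In colon the differences of the main probes ran from -0.17 for Nags to 0.15 for Ass1. Nags ran from -0.16 to 0.51 (median 0.20) in HF-low-low and from -0.21 to 0.17 (median 0.01) in HF-low-suf colons. The ranges overlapped, and the difference of -0.17 ± 0.14 (SE, n = 6 per group) had an exact permutation p of 0.16. Without 1 colon at a time it lay between -0.24 and -0.11. For Ass1 the difference was 0.15 ± 0.18 (exact permutation p = 0.44), for Gls2 0.13 ± 0.18 and for Glul -0.07 ± 0.26. Leaving out 1 colon at a time moved Ass1 between 0.05 and 0.28 (without HF-low-low replicates 4 and 6), Gls2 between 0.0047 and 0.21 (without HF-low-suf replicates 5, the colon lowest in adipose genes, and 4) and Glul between -0.24 and 0.07 (without HF-low-low replicates 4 and 1), with no call. Over the 7 genes the intervals in colon lay between 0.65-fold and 1.46-fold. That of Glul, 0.65-fold to 1.38-fold, did not exclude a difference of 1.5-fold downwards. Of the other probes in colon, the dimmest of Otc differed most, by -0.52 ± 0.25 (unadjusted p = 0.057, limma). The dim second probe of Glul was next, at -0.31 ± 0.36, and neither was called.

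**Figure D3:**
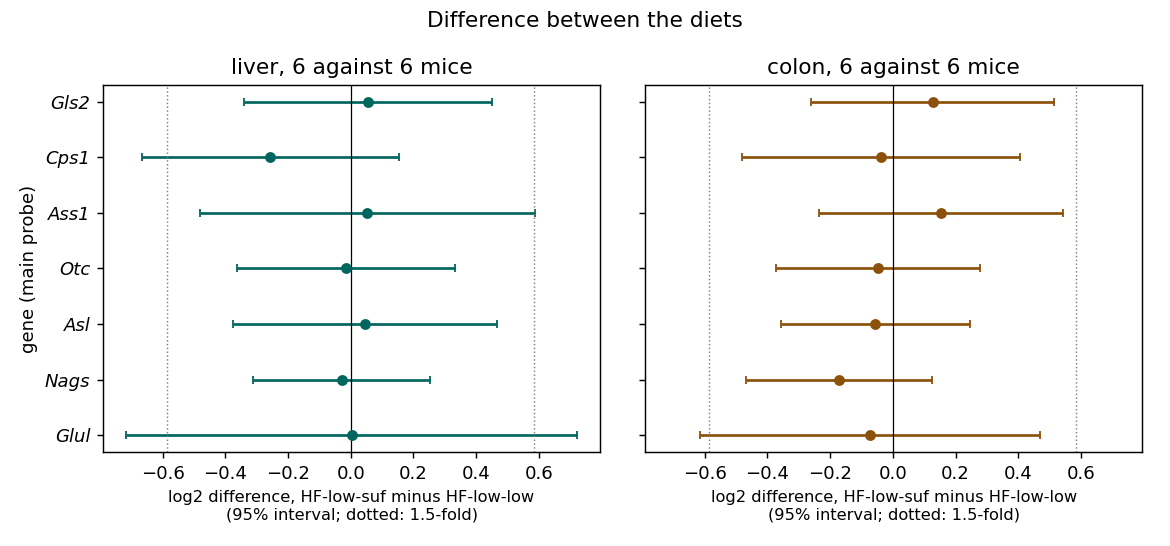
Log2 difference between HF-low-suf and HF-low-low mice (horizontal axis) in liver and in colon, 6 against 6 mice, for the main probe of each gene, with 95% intervals and dotted lines at 1.5-fold. Every interval includes 0, and the widest is that of Glul in liver.

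The diet difference in liver was then set against that in colon in 1 fit of all arrays. On main probes the difference of differences ran from -0.22 for Cps1 to 0.14 for Nags, and the adjusted p (limma) was 0.95 or more for all 7 genes. Leaving out 1 mouse at a time moved Cps1 between -0.39 and -0.11 and Nags between 0.043 and 0.27, with no call. Glul had the widest interval, -0.75 to 0.90.

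Values within a diet spread far more in some of these genes than in others. Each mouse gave 1 array per tissue, so differences between mice and between arrays cannot be told apart. The SD within diet in liver was 0.19 for Nags, 0.27 for Otc, 0.33 for Gls2, 0.34 for Cps1, 0.35 for Asl, 0.47 for Ass1 and 0.66 for Glul. Among the 9763 probes well above background on all 12 livers the median SD was 0.26, so Nags lay at percentile 22.4, Ass1 at 89.1 and Glul at 96.5. The SD of Ass1 was 0.64 in HF-low-low livers, where replicate 3 was lowest (0.14, next 1.03), and 0.21 in HF-low-suf livers. Glul also varied in colon, with an SD of 0.51 at percentile 94.1 of the probes well above background there. Its second probe did not follow its main probe over the 12 livers (r = -0.04), whereas both probes of Ass1 did (r = 0.99) and those of Nags (r = 0.70) and the main and spliced probes of Otc (r = 0.42) did in part, as descriptions over arrays of which the second Glul probe was dim.

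Whether the genes moved together from liver to liver is given for the 21 pairs of these 7 genes, all well above background on the 12 livers, with p-values adjusted over the 28 pairs tested. Only Ass1 with Asl, the successive cytosolic steps, passed: Pearson's r was 0.93 (permutation p = 4e-05, adjusted p = 0.0011) and Spearman's rho 0.85 (permutation p = 0.00095, adjusted p = 0.027). With the 2 most extreme livers for Ass1 left out, r was 0.74. Leaving out HF-low-low replicate 3, the lowest liver in both genes, gave r = 0.82. Centred within diet, r was 0.93, and by scan day it was 0.96 and 0.78 over 6 livers each. In Cy3 values, taken after a normalization that used both dyes, r was 0.83 and the pair no longer passed (permutation p = 0.0018, adjusted p = 0.051). These Cy3 values are thus not free of the reference.

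No other pair passed. The next were Ass1 with Gls2 (r = 0.74, permutation p = 0.0047, adjusted p = 0.065) and Cps1 with Nags (r = 0.62, permutation p = 0.032, adjusted p = 0.30). Of the 21 coefficients 14 were positive, with a median of 0.32. Otc had a negative coefficient with each of the other 6 genes (r from -0.48 to -0.04, on its main probe), none past the threshold.

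**Figure D4:**
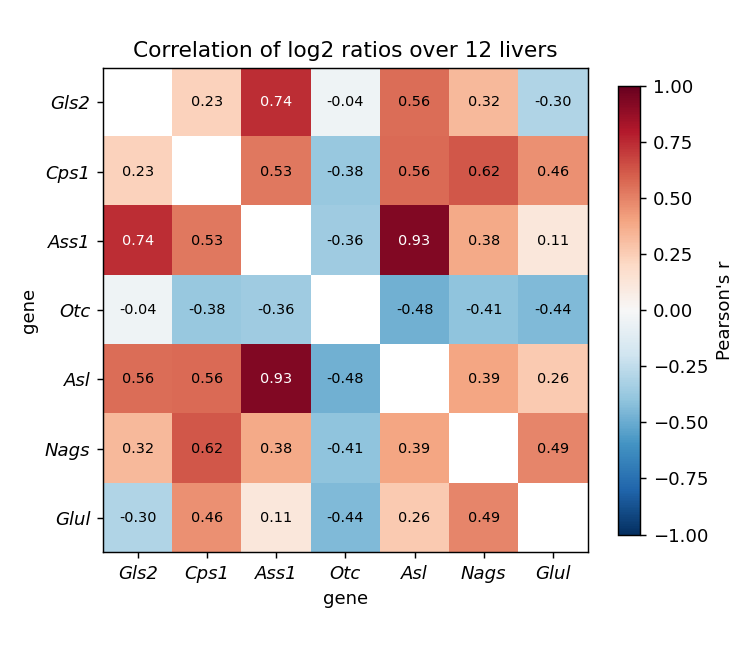
Pearson's r of log2 ratios over 12 livers for each pair of the 7 genes, both axes being genes and the colour the coefficient. Ass1 with Asl (0.93) is the 1 pair past an adjusted p of 0.05.

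For each gene, the genes with the most similar profile over the 12 livers were taken from 9239 named probes, as a description of points that share array and reference. The closest were Anxa7 for Cps1 (r = 0.91), Immp2l for Otc (r = 0.87), Aldh16a1 for Ass1 (r = 0.95), Fbxw5 for Asl (r = 0.95), Hrbl for Nags (r = 0.89), 1810034K20Rik for Glul (r = 0.90) and Ly6e for Gls2 (r = 0.94). Asl had the second probe of Ass1 (r = 0.95) and Aldh16a1 (r = 0.95) next. Cps1 was followed by Trim26 and Herpud2 (both 0.89), Otc by Fn3k (0.87) and Tlcd1 (0.86), Ass1 by Krt8 (0.94) and Pef1 (0.93), and Glul by Capn7 and Mup4 (both 0.90).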

How the data were processed

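The intensity values, as deposited by the authors, are each spot's mean signal in Cy3 and Cy5 and its median local background, quantified by Agilent Feature Extraction and not normalized; its processed signals were used as an alternative. The submitters' processing notes name limma. Here, normexp (offset 50) and loess within arrays were applied, control and outlier spots were left out, and spots of a probe were averaged (R 4.3.3, limma 3.58.1). A probe was well above background where the scanner software flagged it so. Liver was compared with colon with the mouse as a random block, and the diets within each tissue with no block. Named besides the 7 genes were, per list, up to 4 called genes of largest absolute difference and, per gene, up to 3 most similar ones; Slc25a15, Slc25a13, Slc25a12, Slc25a2, Slc1a5, Aldh18a1, Pycr1, Odc1, Pigr, Axin2 and the kidney genes were added to these once their values were known. The genes and lists were chosen with earlier results of these data known. Some genes of the cycle and of the lists are not reported here, so the counts cover only those that are, while p-values were adjusted over all probes or pairs tested. The 6 slides held 1 array of each group and were scanned on 2 days, 3 slides each. No 2 arrays were identical, and the code was tested on simulated data. Array number limits precision. Diet doses and protein data were not used here. The alternatives tried are given in the closing section.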

Additional observations from a re-analysis of the deposited data

Results flagged for a closer look

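In 3 of 28 sets of 6 arrays, 1 array stood apart from the others, where chance flags about 1 set in 20. For Ass1 in HF-low-suf colons, replicate 2 was the lowest, with a gap to its neighbour of 0.811 of the range. For Otc in the same group, replicate 2 was the highest, with a gap of 0.628 of the range. For Glul in HF-low-suf livers, replicate 5 was the highest, at 0.636 of the range.

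The reference channel, which no comparison uses alone, carried kidney transcripts above those of the samples. On the array where each came closest, the log2 ratio of sample to reference was -3.56 for Umod, -6.64 for Kap, -3.46 for Slc34a1, -2.08 for Slc12a1, -3.00 for Slc22a6, -0.018 for Aqp2 and -0.28 for Slc12a3. Kap was saturated in Cy5 on 19 arrays, so its ratio is an upper limit. All 4 skeletal muscle genes looked at were brighter in Cy5 on 24 arrays, and none of 4 brain or 4 testis genes was. These lists were written after the kidney signal was seen.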

How the results depend on the processing

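All 194 refits of single genes for liver against colon, each with 1 choice changed, kept the direction and the call. With 2 choices changed, the second Glul probe in HF-low-low mice alone gave 0.62 and no call (adjusted p = 0.26, limma). Leaving out 1 mouse at a time gave 7 genes called higher in liver and 0 higher in colon each time, and so did the fit without the 2 arrays of bright reference and that without the mice of HF-low-suf replicates 1 and 2, the last chosen after seeing the data. With the mouse as a fixed replicate block Cps1 gave 6.22, as in the fit with the mouse as a random block. Processed signals moved the median probe of liver minus colon to -0.19, from 0.02.

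No diet call arose among the 7 genes, 0 in each tissue, under any alternative run, the replicate block on the slide number included (Cps1 in liver -0.26), and the block changed no other call. Same-numbered arrays did not deviate together in every pair (r over 0.1 in 2 of 6 liver and 3 of 6 colon pairs). The sign of the diet difference held in 147 of 180 refits in liver and 156 of 173 in colon. Leaving out 1 array at a time moved the liver values of the genes other than Cps1 within -0.19 and 0.21 (both Glul), with no call. Those that changed sign and moved by more than the SE of the fit reported were, in colon, Otc (0.12) and Asl (0.10) under median centring and Nags by its other probe (0.039). For the diet effect in liver minus that in colon they were Nags by its other probe (-0.10) and Cps1 (0.092) on the slides of scan day 2 alone. Pairs of genes past the threshold numbered 0 in the Cy3 values, normalized with both dyes, and 1 centred within diet. The causes were not tested. Signal over background limits Gls2 in colon, the dimmest probe of Otc and the second probe of Glul. It also limits the surrounding genes given above with under 12 arrays of a tissue well above background.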
